A study of Mus musculus with 6 samples.

Results

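Genes of striated muscle contraction were examined in RNA-seq counts from mouse thyroid glands. The set held 40 listed genes of the 21878 in the count table, chosen by name for the sarcomere, excitation-contraction coupling, muscle metabolism and fibre type, and all 40 were present. Each library came from 1 of 6 female mice aged 12 weeks. The 3 *Thy-Tet1*+/+ libraries came from wild-type controls, described by the study as littermates. The other 3 carry the label *Thy-Tet1*-/-, a thyroid-specific knockout made with a floxed *Tet1* allele and a Cre active in the thyroid. No agent was given to either group. The protocol text filed with the libraries describes poly(A) selection with 2 kits and mentions retinas, although thyroid is the stated source.

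Skeletal muscle fibres are built from sarcomeres, in which thick filaments of myosin slide along thin filaments of actin, tropomyosin and troponin between Z-discs. A nerve impulse opens calcium channels of the T-tubule and the sarcoplasmic reticulum, calcium binds troponin C, and the calcium pump of the reticulum ends the contraction. Slow and fast fibres carry different isoforms of most of these proteins, so that the isoforms present describe the kind of fibre. A thyroid follicle holds no sarcomeres, whereas strap muscles of the neck, the cricothyroid and other laryngeal muscles lie against the gland.

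The depth of the libraries ranged from 8867683 to 19950898 counts, and levels are given in CPM, counts relative to the TMM-scaled library size. The floor of detection was taken as 3 counts, which were 0.152 to 0.356 CPM. *Tet1* counts were higher under the knockout label, at 5.69, 3.80 and 3.44 CPM in *Thy-Tet1*+/+ and 9.37, 9.60 and 12.2 CPM in the libraries labelled *Thy-Tet1*-/-. These counts are for the whole gene and do not show which of its exons were read. By immunohistochemistry the study reports less TET1 protein in the thyroid of its knockout mice, and less hydroxymethylcytosine, the base that TET1 makes. The study also determined genotypes by PCR of tail DNA. The reason for the higher counts was not tested. Every library had the markers of thyroid follicles, of which 10 summed to 256709 to 316859 CPM in *Thy-Tet1*+/+ and 193893 to 239731 CPM in the other group. Nearly all of this sum was thyroglobulin (*Tg*), the median of the 10 was 192 to 214 CPM against 252 to 277 CPM, and *Slc26a4* had only 1 to 5 counts. Whether same-group mice were handled together is not stated, so p-values measure the spread between these libraries only. Values of a gene are given below for replicates 1, 2 and 3 of a group in that order.

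The promoters of 5 members are shown first, as a description of the set. Whether these sequences bear on the levels in the libraries was not tested. The sequences are the 250 bases before the start of the gene in RefSeq (GRCm38.p6), written 5′ to 3′ on the strand of the gene. Capitals mark the E-box CANNTG bound by factors such as MyoD, the MEF2 site, the CArG box bound by serum response factor, and TATAAA. *Myh4* lies at chr11:67237562-67237811 (plus strand), *Acta1* at chr8:123894776-123895025 (minus strand), *Ckm* at chr7:19410844-19411093 (plus strand), *Pygm* at chr19:6384158-6384407 (plus strand) and *Myl3* at chr9:110763428-110763677 (plus strand).
Myh4: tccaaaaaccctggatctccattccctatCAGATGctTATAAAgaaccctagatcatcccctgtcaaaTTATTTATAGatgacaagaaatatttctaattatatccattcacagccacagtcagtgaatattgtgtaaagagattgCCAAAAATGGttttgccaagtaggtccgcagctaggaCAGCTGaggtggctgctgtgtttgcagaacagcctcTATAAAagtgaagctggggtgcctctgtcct
Acta1: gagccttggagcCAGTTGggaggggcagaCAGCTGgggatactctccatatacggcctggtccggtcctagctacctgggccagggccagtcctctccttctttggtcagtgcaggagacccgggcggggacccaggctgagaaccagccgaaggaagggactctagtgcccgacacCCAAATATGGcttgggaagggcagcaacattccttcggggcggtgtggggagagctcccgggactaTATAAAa
Ckm: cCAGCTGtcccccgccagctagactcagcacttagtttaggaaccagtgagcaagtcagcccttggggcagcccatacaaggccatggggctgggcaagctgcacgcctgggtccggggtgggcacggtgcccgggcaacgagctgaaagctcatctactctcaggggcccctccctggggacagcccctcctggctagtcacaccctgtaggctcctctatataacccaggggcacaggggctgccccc
Pygm: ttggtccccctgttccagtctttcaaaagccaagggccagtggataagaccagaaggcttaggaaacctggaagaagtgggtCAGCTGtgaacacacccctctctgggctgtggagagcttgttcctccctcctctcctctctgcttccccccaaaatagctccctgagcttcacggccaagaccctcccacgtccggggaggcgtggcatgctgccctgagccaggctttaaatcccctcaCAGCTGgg
Myl3: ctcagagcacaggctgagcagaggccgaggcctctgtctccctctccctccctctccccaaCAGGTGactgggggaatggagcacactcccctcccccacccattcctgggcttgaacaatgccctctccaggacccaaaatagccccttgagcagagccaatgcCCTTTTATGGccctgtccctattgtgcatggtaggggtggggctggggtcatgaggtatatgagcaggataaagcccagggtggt

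RefSeq promoters were found for 31 of the 40 members, and not for *Myod1*, *Tnnt3*, *Tcap*, *Myf6*, *Tnni2*, *Actn3*, *Neb*, *Myoz1* and *Myot*. An E-box CANNTG, searched on both strands, occurred in 28 of the 31 windows (90.3%) and in 69.3% of the windows of 27025 genes. Its form CAGCTG, which is contained in CANNTG, occurred in 17 members (54.8%) and in 14.7% of all genes, and it is present in 4 of the 5 promoters shown, the exception being that of *Myl3*. The MEF2 site was found in 6 members (19.4% against 3.42% of all genes) and the CArG box in *Acta1*, *Myh4* and *Myl3* (9.68% against 1.62%). TATAAA, searched on the strand of the gene, was found in 5 members (16.1% against 8.94%). These are matches of letters, with no measure of binding.

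The muscle genes had widely different levels in libraries that carried the same label. The 40 members took 1.09% (Wilson 95% interval 1.08% to 1.09%), 0.154% (0.153% to 0.156%) and 0.725% (0.721% to 0.729%) of the counts in *Thy-Tet1*+/+. In the libraries labelled *Thy-Tet1*-/- they took 0.0444% (0.0434% to 0.0454%), 1.40% (1.39% to 1.40%) and 0.0229% (0.0222% to 0.0236%). These intervals cover counting error only. The highest and the lowest library of the series thus carried the same label, *Thy-Tet1*-/- 2 and 3. Their summed levels of 13777 and 206 CPM differed by 66.9-fold. In bulk RNA, fewer muscle fibres and less RNA per fibre cannot be told apart.

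The same order ran through nearly the whole set. *Thy-Tet1*+/+ 1 and 3 and *Thy-Tet1*-/- 2 lay above the other 3 libraries in 37 of the 40 genes. *Thy-Tet1*+/+ 2 was above *Thy-Tet1*-/- 1, which was above *Thy-Tet1*-/- 3, in 32. The library *Thy-Tet1*-/- 2 was the highest for 30 genes, *Thy-Tet1*+/+ 1 for 7 and *Thy-Tet1*+/+ 3 for 3. The library *Thy-Tet1*-/- 3 was the lowest for 33 genes, or 35 with ties. The groups overlapped for every member, a non-overlap count of 0 of 40, whereas the groups were fully apart for 26.8% of the 14143 genes tested.

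**Figure D1:**
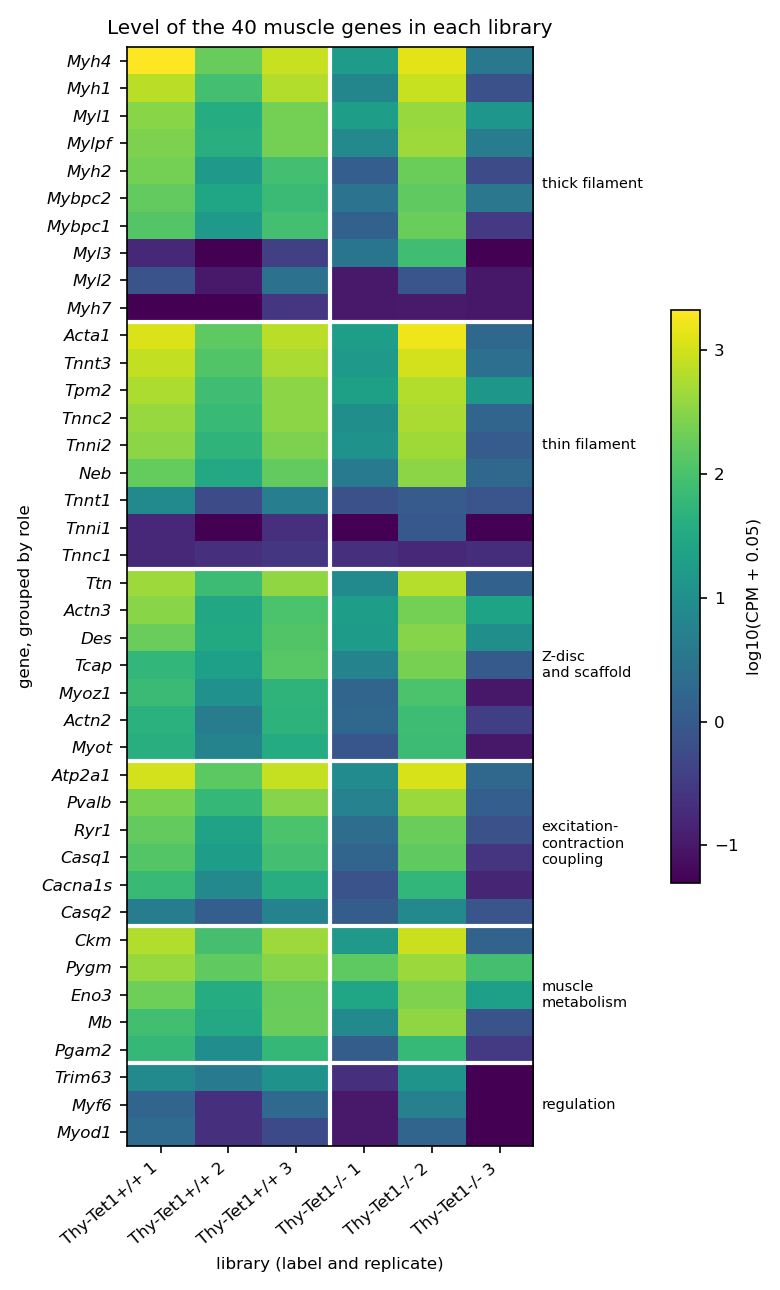
Level of each of the 40 muscle genes (rows, ordered by role and by mean level) in each of the 6 libraries (columns), as log10 of CPM plus 0.05. The columns *Thy-Tet1*+/+ 1 and 3 and *Thy-Tet1*-/- 2 are bright and the columns *Thy-Tet1*-/- 1 and 3 are dark, while *Pygm* stays bright throughout.

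Among the 10 genes of the thick filament, *Myh4* was the most abundant. It encodes the myosin heavy chain of the fastest fibres (type 2B) and lies at chr11:67238029-67260446. It had 2089, 178 and 837 CPM in *Thy-Tet1*+/+ (mean 1035 ± 971, SD, n = 3). Under the label *Thy-Tet1*-/- it had 18.0, 1339 and 3.51 CPM (mean 454 ± 767, SD, n = 3). The SD is as large as the mean or larger in the second group, and *Thy-Tet1*-/- 2 alone of its group was above the lowest control. *Myh1*, the type 2X chain, had 694, 85.3 and 601 CPM against 6.48, 852 and 0.661 CPM. *Myh2*, the type 2A chain, had 229, 15.6 and 88.6 CPM against 1.14, 189 and 0.508 CPM. *Myh7*, the chain of slow fibres and of the heart ventricle, had at most 4 counts in any library, so that slow heavy chain was not detectable beyond the floor outside *Thy-Tet1*+/+ 3.

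The light chains bind the neck of the myosin head. *Mylpf*, the fast regulatory light chain, had 261, 39.3 and 226 CPM against 7.57, 436 and 4.37 CPM. *Myl1*, the fast essential light chain, had 310, 37.0 and 223 CPM against 19.7, 410 and 13.5 CPM. Both followed the order of the heavy chains over a narrower range. Their slow partners were low in most libraries: *Myl2* had 6, 1 and 48 counts against 1, 13 and 1 counts, and *Myl3* is taken up with the isoforms below. The myosin binding proteins C, which cross-link thick filaments, had levels of the same order outside *Thy-Tet1*-/- 3. *Mybpc1* (slow form) had 123, 15.8 and 85.8 CPM against 1.31, 186 and 0.254 CPM. *Mybpc2* (fast form) had 159, 26.0 and 72.0 CPM against 2.83, 158 and 3.30 CPM.

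In the thin filament, *Acta1*, the skeletal α-actin (chr8:123891769-123894751), had 1177, 149 and 708 CPM in *Thy-Tet1*+/+ (mean 678 ± 515, SD, n = 3). It had 18.2, 1583 and 1.78 CPM under the label *Thy-Tet1*-/- (mean 534 ± 908, SD, n = 3), with *Thy-Tet1*-/- 2 the highest of all 6. The troponin complex makes the filament sensitive to calcium. Its fast subunits followed *Acta1*: *Tnnt3*, which binds tropomyosin, had 782, 115 and 548 CPM against 15.4, 995 and 2.39 CPM. *Tnni2*, the inhibitory subunit, had 328, 50.1 and 251 CPM against 11.3, 458 and 1.07 CPM. *Tnnc2*, the calcium sensor, had 405, 64.4 and 326 CPM against 10.02, 548 and 1.58 CPM. *Tnnc2* shares 74% of its exonic bases with *Ube2c* on the opposite strand, and no source says if reads were assigned by strand. *Tpm2*, β-tropomyosin, had 561, 79.6 and 334 CPM against 21.5, 616 and 13.9 CPM, and *Neb*, the giant ruler protein of the filament, had 167, 30.1 and 159 CPM against 3.87, 335 and 1.68 CPM.

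Per kilobase of the longest annotated transcript, the order of levels in *Thy-Tet1*-/- 2 was led by *Acta1* (1095 CPM per kb), *Tnnt3* (922), *Tnnc2* (783), *Tnni2* (596) and *Mylpf* (569). *Ttn* (5.95 CPM per kb), with the longest transcript of the set, and *Casq2* (2.90) were far down this order. The low end was formed by *Tnnc1* (0.164 CPM per kb) and *Myh7* (0.00951), which neighbour each other there at 2 counts and 1 count and are not separated beyond counting error. In *Thy-Tet1*+/+ 1 the same 2 genes led per kilobase, *Acta1* (814) and *Tnnt3* (725).

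Of the 7 genes of the Z-disc and the scaffold of the sarcomere, 6 were highest in *Thy-Tet1*-/- 2 and 6 lowest in *Thy-Tet1*-/- 3, the exception in both being *Actn3*. *Ttn*, whose product titin spans from Z-disc to M-band, had 432, 74.0 and 353 CPM against 8.12, 636 and 1.32 CPM. *Tcap*, which caps titin at the Z-disc, had 57.9, 20.5 and 129 CPM against 5.72, 231 and 0.965 CPM. *Actn2* and *Actn3*, the α-actinins that anchor actin, parted at the low end. *Actn2* had 1.74 and 0.305 CPM in *Thy-Tet1*-/- 1 and 3, against 77.2 CPM in *Thy-Tet1*-/- 2. *Actn3*, the form of fast fibres, kept 19.6 and 23.9 CPM there, against 223 CPM. *Des*, the intermediate filament desmin, which smooth muscle also makes, had 17.7, 307 and 10.01 CPM in that group. *Myoz1* and *Myot*, a calsarcin and myotilin of the Z-disc, had 1 count each in *Thy-Tet1*-/- 3 and 1731 and 1232 counts in *Thy-Tet1*-/- 2.

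Among the 6 genes of excitation-contraction coupling, *Atp2a1*, the fast-fibre calcium pump SERCA1, had 1027, 146 and 812 CPM in *Thy-Tet1*+/+. It had 8.50, 1110 and 1.78 CPM in the libraries labelled *Thy-Tet1*-/-. The summed level of the 6 genes spanned 414-fold, from 4.67 CPM in *Thy-Tet1*-/- 3 to 1935 CPM in *Thy-Tet1*-/- 2, the widest range of any role with a count in every library. *Ryr1*, the release channel, had 160, 23.0 and 104 CPM against 2.18, 186 and 0.661 CPM. *Cacna1s*, the voltage sensor that opens it, had 66.9, 7.43 and 38.6 CPM against 0.708, 56.3 and 0.102 CPM. *Casq1*, the calcium store of fast fibres, had 119, 18.9 and 86.3 CPM against 1.53, 152 and 0.203 CPM. *Pvalb*, a calcium buffer of fast fibres, had 247, 59.3 and 305 CPM against 5.61, 424 and 1.17 CPM.

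In muscle metabolism, *Ckm*, muscle creatine kinase (chr7:19404776-19422841), had 623, 92.1 and 448 CPM against 14.9, 887 and 1.42 CPM. *Mb*, myoglobin, had 82.2, 31.1 and 186 CPM against 7.74, 357 and 0.711 CPM, and *Pgam2*, the muscle phosphoglycerate mutase, had 60.2, 9.25 and 59.7 CPM against 1.09, 61.6 and 0.254 CPM. The glycolytic genes *Pygm* and *Eno3* varied less. *Pygm*, the muscle glycogen phosphorylase, had 399, 157 and 298 CPM in *Thy-Tet1*+/+ (mean 285 ± 122, SD, n = 3). In the other group it had 148, 415 and 92.3 CPM (mean 218 ± 173, SD, n = 3). *Eno3*, β-enolase, had 198, 35.8 and 179 CPM against 26.3, 263 and 20.6 CPM. Genes on the opposite strand overlap 27.6% of the exonic bases of *Mb* and 15.5% of those of *Ckm*, and 21.9% of those of *Atp2a1*, so part of these counts could belong to the overlapping genes.

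The 3 regulators were scarce. *Trim63*, a ubiquitin ligase of atrophy, had 66, 72 and 203 counts in *Thy-Tet1*+/+ and 3, 207 and 0 counts in the other group. It was at least 80.5-fold higher in *Thy-Tet1*-/- 2 than in *Thy-Tet1*-/- 3, with the latter set at the floor of 3 counts in that library. *Myod1*, the master factor of the muscle lineage, had 17, 3 and 9 counts against 1, 26 and 0 counts. *Myf6*, a related factor of mature fibres, had 13, 3 and 34 counts against 1, 90 and 0 counts. A count of 0 in *Thy-Tet1*-/- 3 allows a level of up to 0.152 CPM.

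The distance between the highest and the lowest library was very unequal between members. Among the 29 genes with more than 3 counts in *Thy-Tet1*-/- 3, the level in *Thy-Tet1*-/- 2 was 1.32-fold (*Tnnt1*) to 1290-fold (*Myh1*) higher, with a median of 281-fold. The 9 genes under 50-fold were *Tnnt1*, *Pygm* (4.50-fold), *Actn3* (9.34-fold), *Casq2* (9.72-fold), *Eno3* (12.8-fold), *Myl1* (30.4-fold), *Des* (30.6-fold), *Tpm2* (44.4-fold) and *Mybpc2* (47.7-fold). In *Thy-Tet1*-/- 3, 11 members had 3 counts or fewer, of which 5 (*Myl3*, *Tnni1*, *Trim63*, *Myod1* and *Myf6*) had 0.

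The make-up of the set differed between libraries with its size. *Pygm*, *Actn3*, *Eno3*, *Tpm2*, *Myl1* and *Des*, 6 genes named after their values were seen, held 16.0% to 22.5% of the member counts in *Thy-Tet1*+/+ and 16.2% in *Thy-Tet1*-/- 2. They held 60.9% in *Thy-Tet1*-/- 1 and 84.5% in *Thy-Tet1*-/- 3. *Pygm* alone held 3.01% to 9.52% in those 4 libraries and 35.7% and 44.8% in the latter 2. The other 34 members summed to 9471, 1277 and 6586 CPM against 162, 11543 and 31.9 CPM, a range of 362-fold in place of 66.9-fold. The 6 were the highest members in *Thy-Tet1*-/- 3, so their share there and the wider range of the rest follow from the choice. Across the 40 members, log2 levels correlated between *Thy-Tet1*+/+ libraries at Pearson's r of 0.978 to 0.982 and between those and *Thy-Tet1*-/- 2 at 0.919 to 0.929. The correlation of *Thy-Tet1*-/- 3 with these 4 libraries was 0.590 to 0.693 and with *Thy-Tet1*-/- 1 it was 0.868. These are correlations across genes, which are not independent replicates, and low counts weaken them.

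**Figure D2:**
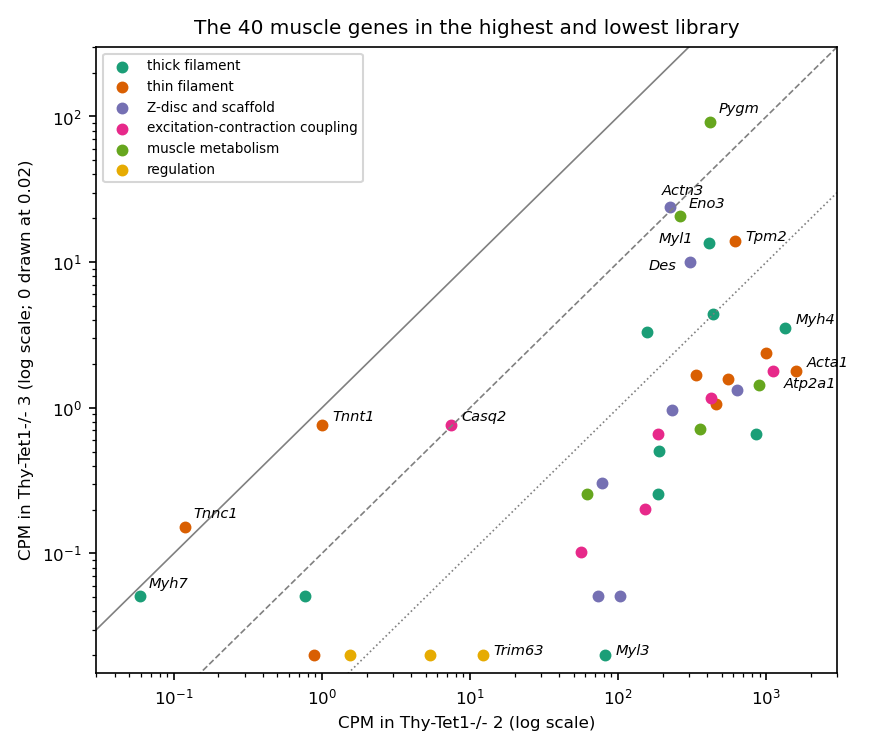
CPM of the muscle genes in *Thy-Tet1*-/- 2 (x axis) and *Thy-Tet1*-/- 3 (y axis), both on log scales, coloured by role. The solid, dashed and dotted lines mark equal levels and levels 10-fold and 100-fold lower, and *Pygm*, *Actn3* and *Eno3* lie near or above the dashed line while most genes lie below the dotted line.

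With this spread the group labels separated none of the members. Of the 40 members, 35 had enough counts for edgeR's quasi-likelihood test, and *Myh7*, *Myl3*, *Tnni1*, *Tnnc1* and *Myod1* had not. In it 31 had a lower and 4 a higher mean level in the libraries labelled *Thy-Tet1*-/-, the 4 being *Des*, *Tcap*, *Mb* and *Myf6*. The median log2 fold change was -0.42, beside 0.00 over all 14143 tested genes. Genes were called when they differed by more than 1.5-fold with an unadjusted p under 0.05, and *Tnnt1* alone was. This is 1 of 35 members (2.86%), beside 9.2% of all tested genes in either direction, 3.66% lower and 5.54% higher. None of the 35 had an adjusted p under 0.05 (0.214 to 0.999, Benjamini-Hochberg over all genes, edgeR quasi-likelihood fit), beside 0.113% of all genes, and 1 had an unadjusted p under 0.05. The median standard error of the members was 1.70 on the log2 scale, beside 0.20 over all tested genes. Their SD of log2 CPM within a group had a median of 3.13 (range 0.92 to 3.85), beside 0.25 over all genes, and 28 of the 35 lay above the 99th percentile of all genes (2.22).

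*Tnnt1*, the slow skeletal troponin T, had 7.59, 0.535 and 4.72 CPM in *Thy-Tet1*+/+ (mean 4.28 ± 3.55, SD, n = 3). It had 0.654, 1.007 and 0.762 CPM in the other group (mean 0.808 ± 0.181, SD, n = 3). Its 17 counts in *Thy-Tet1*-/- 2 were close to the 12 and 15 of the other 2 libraries of that group, unlike the fast form *Tnnt3*, which had 16800, 282 and 47 counts in *Thy-Tet1*-/- 2, 1 and 3. *Thy-Tet1*+/+ 2, with 10 counts, lay below all 3, so the groups overlapped. Its log2 difference between groups was -2.38 with a standard error of 0.87 (edgeR quasi-likelihood fit, unadjusted p = 0.0296, Benjamini-Hochberg adjusted p = 0.214). With 1 library left out it passed in 1 of 6 fits, that without *Thy-Tet1*+/+ 2 (-2.92), and had an unadjusted p of 0.0539 to 0.109 in the other 5 (-2.56 to -1.70, edgeR quasi-likelihood fit). It did not pass with epithelial scaling, limma-voom or the replicate block either.

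The direction for the set depended on single libraries. When *Thy-Tet1*-/- 2 was left out, all 35 tested members were lower in the 2 remaining libraries labelled *Thy-Tet1*-/-. The median log2 fold change was then -5.50 (range -7.05 to -1.24), and 34 of 35 passed the limits as lower, beside 4.78% of all genes tested in that fit. The exception was *Tnnt1*. None had an adjusted p under 0.05 (0.171 to 0.326, Benjamini-Hochberg over all genes, edgeR quasi-likelihood fit), and 34 had an unadjusted p under 0.05. When *Thy-Tet1*+/+ 1, *Thy-Tet1*-/- 1 or *Thy-Tet1*-/- 3 was left out, the median was 0.041, 0.040 or 0.062 instead. In the fit of all 6 libraries *Myh4* had a log2 fold change of -1.19 (standard error 1.86), which became -6.57 (standard error 1.42) without *Thy-Tet1*-/- 2. *Atp2a1* moved from -0.83 to -7.0 in the same way and *Pygm* from -0.38 to -1.24.

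**Figure D3:**
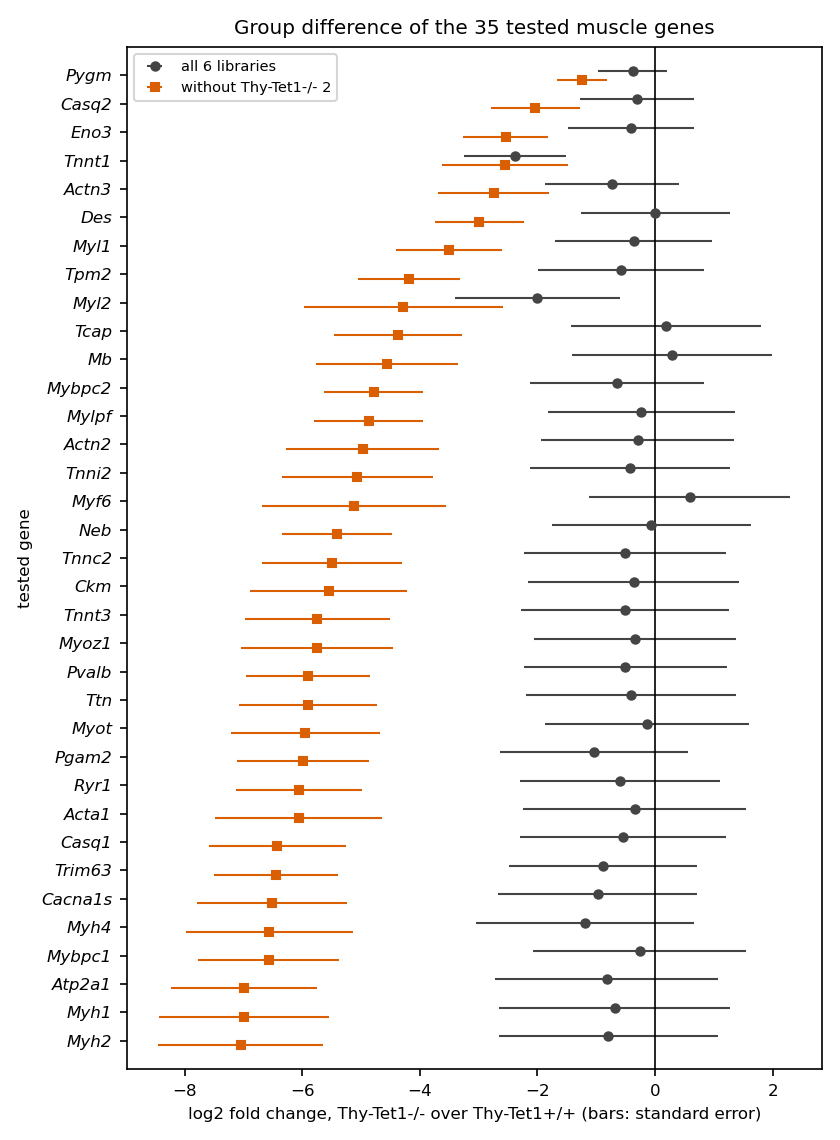
Log2 fold change of the libraries labelled *Thy-Tet1*-/- over *Thy-Tet1*+/+ for the 35 tested muscle genes (points, with bars of 1 standard error), from all 6 libraries (circles) and without *Thy-Tet1*-/- 2 (squares). The circles lie between -2.38 and 0.59 with wide bars and the squares between -7.05 and -1.24.

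By role, the 8 tested thick filament genes were all lower in the fit of 6 libraries (-2.0 to -0.23), as were the 7 of the thin filament (-2.38 to -0.062) and the 6 of excitation-contraction coupling (-0.98 to -0.31). Of the 7 Z-disc and scaffold genes 5 were lower (-0.73 to 0.19), and of the 5 metabolic genes 4 (-1.04 to 0.28). Of the 2 tested regulators, *Trim63* was lower (-0.89) and *Myf6* higher (0.59). Of these, only *Tnnt1* passed the limits. Without *Thy-Tet1*-/- 2, the highest library for 30 of the 40 members, every tested gene of each role apart from *Tnnt1* passed as lower. In that fit 4.78% of all tested genes passed as lower. The members differed together between libraries, so the roles are not separate results.

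Slow and fast isoforms were next set against each other within each library. For 8 isoform pairs the log2 ratio of slow to fast counts (0.5 added to each) was compared between groups by two-sided exact permutation tests, which cannot give a p below 0.1 for 3 libraries against 3. In *Thy-Tet1*+/+ the fast form dominated 7 of the 8 pairs, with slow shares of at most 1.16% for the myosin heavy chain, both light chains and the 3 troponins, and of 3.65% to 6.33% for calsequestrin. The exception was myosin binding protein C, where *Mybpc1* made up 37.7% to 54.4%.

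The essential light chain differed most. *Myl3*, the form of slow fibres and of the ventricle, had 1, 0 and 6 counts in *Thy-Tet1*+/+ and 57, 1373 and 0 counts in the other group. Of the *Myl3* and *Myl1* counts, *Myl3* took 0.0383%, 0 and 0.149% in *Thy-Tet1*+/+. The share was 13.6% (Wilson 95% interval 10.7% to 17.3%) in *Thy-Tet1*-/- 1 and 16.6% (15.8% to 17.4%) in *Thy-Tet1*-/- 2. In *Thy-Tet1*-/- 3 it took 0 of 266 counts, which allows up to 1.42%, a limit below the share in either of the other 2. The log2 ratio was higher by 5.48 in that group, at an exact permutation p of 0.1 (0.4 adjusted over the 8 pairs, n = 3 and 3). The position of *Thy-Tet1*-/- 3 above the controls on this scale rests on the added 0.5 counts. *Thy-Tet1*-/- 1 and 2 shared this high share although their summed muscle levels, 414 and 13777 CPM, were far apart. *Myl2* and *Myh7*, other genes of slow fibres and the ventricle, had 13 counts and 1 count in *Thy-Tet1*-/- 2, where *Myl3* had 1373.

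For troponin I, *Tnni1* had at most 15 counts, and the ratio was higher by 1.85 (exact permutation p = 0.1, 0.4 adjusted, 3 against 2 libraries, since *Thy-Tet1*-/- 3 had under 30 counts for the pair). *Tnni1* had 0 counts in *Thy-Tet1*-/- 1, so the position of that library above the controls rests on the added 0.5 counts. The remaining 6 pairs had exact permutation p of 0.3 to 0.8. In 4 of them (myosin heavy chain, troponin T, troponin C and calsequestrin) the slow share in *Thy-Tet1*-/- 1 and 3, which had the least muscle RNA, was above that in every other library. For the heavy chain it rested on 1 count of *Myh7* in each, and for troponin C on 3 counts of *Tnnc1*, 1.60% (0.547% to 4.61%) and 8.82% (3.05% to 22.96%). *Tnnt1* made up 24.2% (15.2% to 36.2%) of troponin T counts in *Thy-Tet1*-/- 3 and 4.08% (2.35% to 6.998%) in *Thy-Tet1*-/- 1, beside 0.101% in *Thy-Tet1*-/- 2 and 0.464% to 0.962% in *Thy-Tet1*+/+. *Casq2*, the calsequestrin of the heart and slow fibres, made up 41.7% (28.8% to 55.7%) in *Thy-Tet1*-/- 1 and 78.9% (56.7% to 91.5%) in *Thy-Tet1*-/- 3, beside 4.64% in *Thy-Tet1*-/- 2. For this pair *Thy-Tet1*-/- 3 was also under 30 counts, so the test left it out. In the libraries labelled *Thy-Tet1*-/-, *Casq2* had 20, 125 and 15 counts and *Casq1* 28, 2570 and 4 counts. Myosin binding protein C went the other way, with a slow share of 31.6% (22.2% to 42.7%) in *Thy-Tet1*-/- 1 and 7.14% (3.09% to 15.7%) in *Thy-Tet1*-/- 3. That share was 54.1% in *Thy-Tet1*-/- 2 and 37.7% to 54.4% in *Thy-Tet1*+/+. The 8 cardiac markers, among them *Myh6*, *Nppa* and *Tnnt2*, summed to 1.39 to 4.03 CPM in *Thy-Tet1*+/+ and 3.21 to 3.97 CPM in the other group, with *Myh6* and *Nppa* at 0.237 CPM or less.

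A list of 83 further muscle genes, fixed by function, was read beside the members. Of these, 74 were tested and 3 passed the limits (2 higher, beside 5.54% of all genes, and 1 lower, beside 3.66%), with a median log2 fold change of -0.24 and 0 with an adjusted p under 0.05. Without *Thy-Tet1*-/- 2, 45 of 74 passed as lower and the median was -2.37. Their summed level ranged from 1969 to 6637 CPM, only 3.37-fold. Their median level varied more, at 18.7, 3.96 and 22.7 CPM in *Thy-Tet1*+/+ and 1.63, 33.9 and 0.661 CPM in the other group. The most abundant of them are also made outside muscle: *Aldoa*, a glycolytic aldolase, had 1353, 750 and 1138 CPM against 764, 1422 and 499.7 CPM. *Tpm1*, α-tropomyosin, had 487, 337 and 438 CPM against 156, 663 and 173 CPM. *Asph*, *Mef2a* and *Ppargc1a* stayed within 86.8 to 126, 77.9 to 92.4 and 62.0 to 92.5 CPM. *Trdn*, triadin of the calcium release complex, was among those that behaved like the members, with 185, 8.45 and 44.8 CPM against 1.63, 61.7 and 0.356 CPM.

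*Myh8*, the heavy chain of perinatal muscle (chr11:67277124-67308634), showed the largest difference of the 3 that passed, the others being *Cox8b* (higher) and *Fbp2* (lower), genes of the respiratory chain and of gluconeogenesis. It had 3.20, 0.321 and 0.388 CPM in *Thy-Tet1*+/+ and 12.5, 517 and 0.152 CPM in the libraries labelled *Thy-Tet1*-/-. The log2 difference between groups was 7.41 with a standard error of 2.58 (edgeR quasi-likelihood fit, Benjamini-Hochberg adjusted p = 0.201). It was 2.42 without *Thy-Tet1*-/- 2, and no longer past the limits. *Myh8* did not pass with limma-voom (3.81, standard error 5.69) or the replicate block (4.31, standard error 2.61) either. DESeq2 gave no p-value for it. Of the counts on 7 heavy chain genes, *Myh8* took 0.106%, 0.115% and 0.0251% in *Thy-Tet1*+/+. It took 32.6% (29.2% to 36.1%) in *Thy-Tet1*-/- 1, 17.8% (17.5% to 18.2%) in *Thy-Tet1*-/- 2 and 3.13% (1.07% to 8.79%, 3 of 96 counts) in *Thy-Tet1*-/- 3. The library *Thy-Tet1*-/- 1 thus held more *Myh8* than *Myh1*, at a total of 706 heavy chain counts. *Myh3*, the embryonic chain, had at most 3 counts in any library.

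*Myh13*, the chain of extraocular and laryngeal muscle, was seen almost wholly in 1 library. It had 370 counts (20.5 CPM) in *Thy-Tet1*+/+ 3, which is 1.33% (1.20% to 1.47%) of its heavy chain counts, and at most 3 counts in any other library. *Myh4* held 69.3%, 63.7% and 54.1% in *Thy-Tet1*+/+ and 46.9%, 46.2% and 71.9% in the other group. *Myh1* held 23.0%, 30.6% and 38.8% against 16.9%, 29.4% and 13.5%. Of all stretches of 50 bases in their transcripts, *Myh1*, *Myh2*, *Myh4* and *Myh8* share 18.9% to 26.6% with another of the heavy chains and *Myh13* 7.30%, so the split between these genes is uncertain to that extent.

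**Figure D4:**
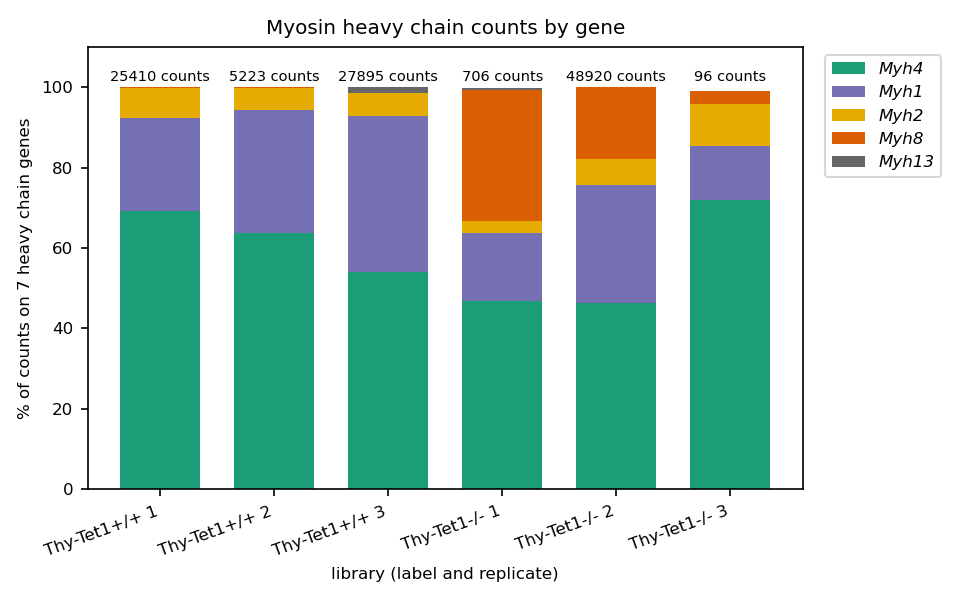
Share (%) of the counts on 7 myosin heavy chain genes that fell on *Myh4*, *Myh1*, *Myh2*, *Myh8* and *Myh13* in each library, with the total above each bar (*Myh7* and *Myh3*, at most 1.04%, are not drawn). The *Myh8* part is visible in *Thy-Tet1*-/- 1 (32.6%), *Thy-Tet1*-/- 2 (17.8%) and *Thy-Tet1*-/- 3 (3.13%, from 3 counts) and not in *Thy-Tet1*+/+.

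The genes outside the set whose pattern was most like its median included other muscle genes. Over the 6 libraries, which fall far apart and share depth and scaling, the 10 highest Pearson correlations of log2 CPM with the median member were 0.993 to 0.999, given as a description. They belonged to *Xirp2*, *Myom2*, *Klhl31*, *Nrap*, *Hfe2*, *Cmya5*, *Mylk2*, *LOC102634333*, *Myo18b* and *Jsrp1*, of which 6 are in the list of further muscle genes. *Xirp2*, an actin-binding protein of striated muscle, had 116, 14.3 and 82.9 CPM against 1.42, 137 and 0.102 CPM.

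Markers of other tissues moved less or in another order. Summed smooth muscle markers were 302, 188 and 218 CPM in *Thy-Tet1*+/+ and 149, 231 and 167 CPM in the other group. The 3 libraries richest in the members were also the 3 highest here, over a 2.03-fold range. Adipocyte markers were highest in *Thy-Tet1*-/- 1 (1328 CPM) and lowest in *Thy-Tet1*+/+ 3 (147 CPM). Parathyroid markers, from a gland embedded beside the thyroid, were lowest in *Thy-Tet1*+/+ 2 (192 CPM) and highest in *Thy-Tet1*+/+ 3 (31340 CPM). Markers of Schwann cells ranged from 224 to 520 CPM, of endothelium from 382 to 565 CPM, of fibroblasts from 587 to 826 CPM, of C cells from 2031 to 4785 CPM, of blood from 158 to 854 CPM and of cartilage from 11.3 to 30.7 CPM. The 10 epithelial genes used for an alternative scaling summed to 1965 to 3262 CPM. The part of these tissues in the muscle values was not tested.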

How the data were processed

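RNA-seq counts of 6 mouse thyroid libraries were analysed, 3 in each group by their labels. The authors deposited unnormalized counts, a whole number of reads for each gene and library, and the submitters' processing notes name the mm10 build. The aligner, the counting program, its strand setting and the annotation are not given in the sources used here. There were 0 other columns of values per library, and 27 symbols that had turned into dates were restored from their NCBI gene identifiers.

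Groups were compared with edgeR 4.0.16 in R 4.3.3 (TMM scaling, filterByExpr, glmQLFit and glmQLFTest) across the whole table, which left 14143 genes. Adjusted p-values are Benjamini-Hochberg values over all of them, and the common biological coefficient of variation was 0.327. Genes were called beyond a 1.5-fold difference with an unadjusted p under 0.05. CPM used TMM-scaled library sizes, and log2 CPM a prior count of 2. Isoform ratios were compared by exact permutation tests over libraries with at least 30 counts for the pair, and shares were given Wilson 95% intervals with scipy 1.17.1. Overlaps and transcript lengths came from GENCODE M21. The code was tested on simulated data with known changes, drawn at the common coefficient of variation for every gene. The members had a median of 1.29, a spread that this simulation did not cover.

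The members and lists were chosen with earlier results of these data known. All members could be named. Values of every library were set for the most abundant gene of each role, the isoform pairs, *Myod1*, *Myf6*, the least abundant gene and any gene past the limits, and for the 3 most abundant further muscle genes of each role. In the text *Myh7*, *Tnni1*, *Tnnc1* and *Casq2* are given in part, and *Asph*, *Mef2a* and *Ppargc1a* as ranges. *Tpm3*, *Srl*, *Ldha*, *Eno1* and *Cfl2* of that choice are left out. Genes outside it are shown as description. Alternatives were RLE size factors, library totals, scaling to 10 epithelial genes, scaling without muscle genes, DESeq2 1.42.0, limma-voom (limma 3.58.1), other filters, a replicate block and each library left out. Whether same-numbered libraries deviate together was checked.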

Additional observations from a re-analysis of the deposited data

How the results depend on the processing

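The count of members past the limits was 1 and moved to 0 with scaling to epithelial genes, 2 without a filter on low counts, 0 with the replicate block and 0 to 34 when 1 library was left out, the 34 being without *Thy-Tet1*-/- 2. The gene was *Tnnt1* with RLE size factors, library totals, scaling without muscle genes, DESeq2 and 10 counts in every library, and *Trim63* with limma-voom. *Myl3* was the other gene without a filter and the 1 gene called without *Thy-Tet1*-/- 3. The median log2 fold change of the members was -0.42 and ranged from -0.42 to -0.073 under the other scalings, DESeq2 and the filters. It was -3.45 with limma-voom, -4.15 with the replicate block and between -5.50 and 0.062 with 1 library left out; the cause was not tested. Scaling to library totals or to epithelial genes moved the median of all genes to 0.19 and 0.47, and the members lay 0.49 and 0.54 below it. The share of calls that were higher was 60.2%, and 86.1% and 97.8% under these scalings. No member had an adjusted p under 0.05 in any setting of edgeR, DESeq2 or limma-voom, and the lowest was 0.059 with DESeq2. DESeq2 gave no p-value for *Neb*, *Actn2*, *Eno3* and *Pgam2* and no adjusted p for *Myl2*, so these could not be called there.

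Same-numbered libraries did not deviate together (r of -0.17, -0.37 and -0.19), so the numbers are not taken as pairs. With the replicate block, 0 members and 0 further muscle genes passed the limits.

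Further muscle genes past the limits numbered 3, and 6 with epithelial scaling, 0 with limma-voom, 5 without a filter and 0 to 45 with 1 library left out. They took 0.485%, 0.271% and 0.426% of the counts in *Thy-Tet1*+/+ and 0.299%, 0.674% and 0.219% in the other group. Their summed level, though not their median, differed by only 3.37-fold between the highest and the lowest library. For the members this ratio was 33.2 to 66.9 with 1 library left out. The slow to fast difference reversed for troponin T (-0.13 to 4.01 with 1 library left out, negative without *Thy-Tet1*-/- 3) and for calsequestrin (-0.17 to 3.71, negative without *Thy-Tet1*-/- 1). For calsequestrin each end of the range rests on 1 library labelled *Thy-Tet1*-/-, because *Thy-Tet1*-/- 3 had under 30 counts for the pair.

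Of the named members, log2 fold changes turned positive with epithelial scaling for *Mylpf* (0.11), *Mybpc1* (0.081) and *Casq2* (0.067), and *Myf6* turned negative with limma-voom (-1.85) and the replicate block (-2.26). With 1 library left out they ranged from -6.06 to 0.32 for *Acta1*, -5.91 to 0.16 for *Ttn*, -5.55 to 0.21 for *Ckm*, -4.87 to 0.32 for *Mylpf*, -3.51 to 0.18 for *Myl1*, -5.75 to 0.058 for *Tnnt3*, -5.06 to 0.15 for *Tnni2*, -5.50 to 0.062 for *Tnnc2*, -6.57 to 0.31 for *Mybpc1*, -4.79 to 0.15 for *Mybpc2*, -2.03 to 0.14 for *Casq2*, -6.43 to 0.033 for *Casq1* and -5.12 to 1.17 for *Myf6*. The depth of 8867683 to 19950898 counts limits genes near 3 counts, while the spread between libraries limits all others.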

Other observations

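Some of the further muscle genes had an order of libraries unlike that of the members. *Cox8b*, a subunit of cytochrome c oxidase made in heart, skeletal muscle and brown fat, had 10.8, 7.27 and 24.6 CPM in *Thy-Tet1*+/+ and 82.5, 55.7 and 12.7 CPM in the libraries labelled *Thy-Tet1*-/-. It differed by 1.81 on the log2 scale (edgeR quasi-likelihood fit, Benjamini-Hochberg adjusted p = 0.243) and, besides *Myh8*, was the other further muscle gene called as higher. *Cpt1b*, the carnitine palmitoyltransferase of muscle and brown fat, had 20.3, 4.44 and 14.5 CPM against 66.8, 39.6 and 12.3 CPM. *Fabp3*, a fatty acid binding protein of oxidative muscle, had 8.30, 1.66 and 41.6 CPM against 43.2, 24.1 and 4.37 CPM. All 3 were high in *Thy-Tet1*-/- 1, where most members were near their lowest. The brown adipocyte markers, among them *Ucp1*, summed to 114, 22.1 and 24.2 CPM against 482, 177 and 66.6 CPM. The part of brown fat in the values of these genes was not tested.

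*Actc1*, *Musk* and *Sln* stood apart in 1 or 2 libraries and were named after their values were seen. *Actc1*, the cardiac α-actin that developing skeletal muscle also makes, had 2.25, 0.802 and 54.2 CPM in *Thy-Tet1*+/+ and 1.91, 30.5 and 0 CPM in the other group. *Musk*, the receptor kinase of the neuromuscular junction, had 10.9 CPM in *Thy-Tet1*-/- 2 and 0.508 to 2.25 CPM elsewhere. *Sln*, sarcolipin, an inhibitor of the calcium pump, had 19.9 CPM in that library and 6.60 CPM in *Thy-Tet1*+/+ 3, against at most 0.981 CPM elsewhere.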
